A study of Mus musculus with 10 samples.

Results

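The integrin and laminin genes of the mouse right atrium were followed in 10 RNA-seq libraries, 4 from mice labelled control and 6 from mice labelled Tbx5 mutant. Members were taken by gene symbol alone: every row of the deposited gene table whose symbol is that of an integrin alpha or beta chain or of a laminin alpha, beta or gamma chain. This gave 37 of the 23337 genes in the table, 26 integrin chains and 11 laminin chains, and the symbol pattern itself uses no measured value. Of these, 35 were among the 13084 genes that passed the expression filter and were tested. Lama1 and Itgae did not pass and are described by their reads only.

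Integrins are cell surface receptors built from an alpha and a beta chain, which bind matrix proteins or counter-receptors outside the cell and the actin cytoskeleton inside it. Laminins are the cross-shaped trimers of an alpha, a beta and a gamma chain that form the base of every basement membrane, the sheet of matrix that surrounds each heart muscle cell, vessel and nerve. In heart muscle the chains encoded by Itga7 and Itgb1 make up the main laminin-binding integrin, while a separate set of integrins is carried by white blood cells and platelets.

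Mice of mixed strain carried a Tbx5 allele whose exon 3 can be removed by a tamoxifen-inducible Cre expressed from the ubiquitous R26 promoter, so that deletion was not limited to heart muscle. Tamoxifen is listed for all samples at 0.167 mg per day for 3 days, with tissue taken 1 week later at an age that the labels give both as 6 to 8 and as 8 to 10 weeks. The genotype of the control mice is labelled Control and nothing more. The mutant mice are numbered F1 to F3 and M1 to M3 and the control mice F1, F2, M1 and M2, with 1 library per animal. Counts per library summed to between 5703775 and 7095141. In mutant mouse M3 the ribosomal precursor Rn45s took 38.9% of the counts, against at most 1.49% elsewhere, and 3484550 counts were left on other genes. Tbx5 itself went against the labels: its level averaged 205 CPM with an SD of 17.8 over the 4 controls and 394 CPM with an SD of 83.3 over the 6 mutants, a log2 fold change of 0.94 (SE 0.15, edgeR quasi-likelihood test, adjusted p = 0.000495). CPM are counts scaled to a common library size after TMM normalization. Of the atrial muscle markers, the calcium channel gene Ryr2 and the calcium pump regulator Sln fell in the labelled mutants, by 1.65 and 0.98 on the log2 scale (edgeR adjusted p = 2.99e-05 and 0.000264). Others of the 8 markers listed went the other way. By the criteria given below 4 were called lower and 2 higher, the latter being Tnnt2 and Actc1, which rose by 1.12 and 0.90 on the log2 scale. A gene count does not show whether a transcript holds exon 3, and both groups are named below by their labels. The sex labels of the 4 control mice were also contradicted, since M1 and M2 had 10149 and 7850 reads of Xist, while F1 and F2 had 5 and 14. For the mutant mice Xist and the Y-linked gene Ddx3y followed the labels. A comparison among mice labelled male thus sets controls with Xist reads against mutants with Ddx3y reads, and among mice labelled female the reverse. Genotype and sex cannot be told apart within either labelled sex. Values of the 4 control mice are given below in the order M1, M2, F1 and F2.

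The atrium held a few integrin and laminin chains at high level and most of the others at low level. Levels between genes are compared as CPM per kilobase of the longest annotated transcript. Among the alpha chains Itga7 was highest in the control mice, at 32.8 ± 6.0 CPM per kilobase (SD, n = 4), followed by the vitronectin receptor chain Itgav at 20.7 ± 0.75 and by Itga6, a second laminin receptor chain, at 18.6 ± 2.0. The last of these levels differed from the one before it by about its SD. Itga9 stood at 10.4 ± 0.74, Itga5, the fibronectin receptor chain, at 9.48 ± 0.82, and Itga1, a collagen receptor chain of stromal and muscle cells, at 6.39 ± 0.89 CPM per kilobase. The other alpha chains lay between 0.136 and 5.85 CPM per kilobase in the control mice, with Itgae lowest and Itga3 highest.

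Itgb1, the partner of most alpha chains, reached 154 ± 3.1 CPM per kilobase in the control mice and held 73.2% ± 1.0 of the summed beta chain level (SD, n = 4). Itgb5, a partner of Itgav, held 18.6% ± 1.7, and Itgb6, another partner of Itgav that is best known from epithelia, 4.09% ± 1.2. Each of the other beta chains held between 0.230% and 1.53% on average.

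Laminin chains were dominated by Lama4 and Lama2, by Lamb2, and by Lamc1. In the control mice Lama4, the alpha chain of vessel walls, was at 47.4 ± 3.5 CPM per kilobase and Lama2, the alpha chain around muscle fibres, at 37.5 ± 1.7 (SD, n = 4). Lama5 was at 7.27 ± 0.32 and Lama3 at 0.659 ± 0.090 CPM per kilobase. Lama1, a chain of the early embryo, had 0 or 1 read in each control library and at most 2 in a mutant library. A count of 3 is the smallest taken as detectable, so Lama1 was at or under that floor, which is between 0.40 and 0.817 CPM per library, in all 10 mice. Lamb2 was at 122 ± 12 CPM per kilobase, Lamb1 at 29.8 ± 2.6 and Lamb3 at 5.48 ± 1.6. Lamc1 stood at 49.6 ± 3.9 and Lamc3 at 0.573 ± 0.12 CPM per kilobase.

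**Figure D1:**
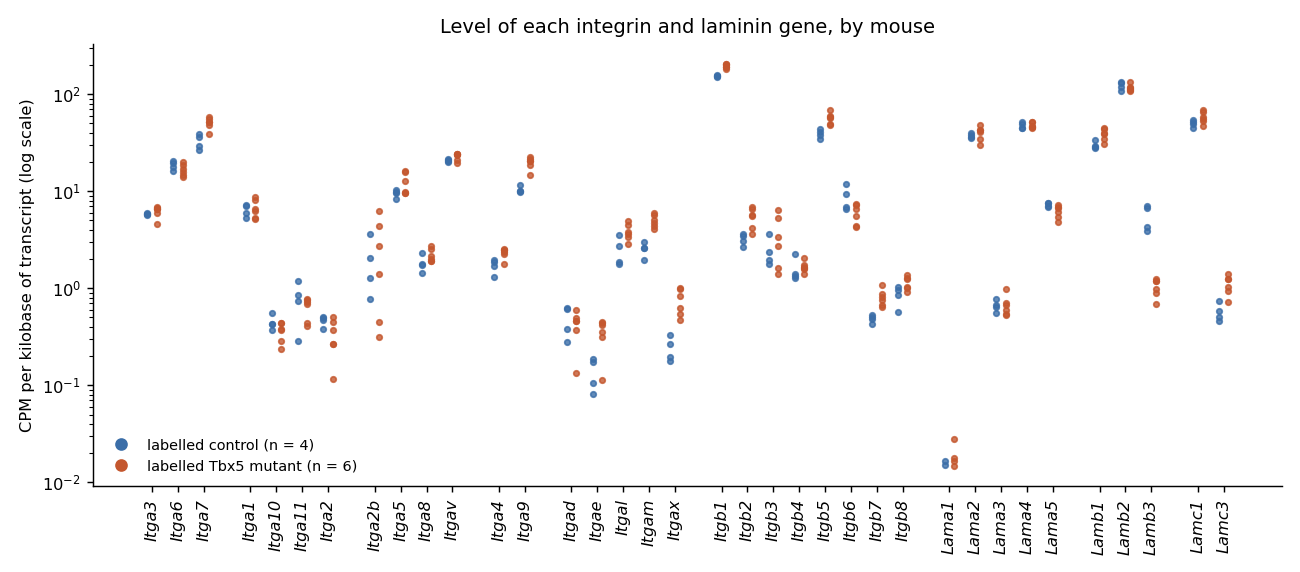
CPM per kilobase of transcript on a log axis for the integrin and laminin genes, 1 point per mouse, grouped by role from laminin-binding integrin alpha chains on the left to laminin gamma chains on the right. Itgb1 and Lamb2 lie highest, Lamb3 is the gene whose mutant points fall well below its control points, and libraries without a read of Lama1 are not drawn.

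Which chains differed between the groups was asked with edgeR's quasi-likelihood test over all 10 libraries. Calls required 3 things together, namely a Benjamini-Hochberg adjusted p under 0.05, a fold over 1.5 in either direction, and a mean above 1 of the authors' normalized signal in the control mice. One member, Lamb3, was called lower in the mutant mice, which is 2.86% of the 35 tested against 7.16% of all genes tested. The 8 members called higher, 22.9% of the 35 against 8.50% of all genes, were Itga7, Itga9, Itgal, Itgam, Itgax, Itgb2, Itgb7 and Lamc3. Itgax and Itgb7 had 5 to 8 and 7 to 10 reads per control library and passed the expression filter only through the mutant mice. They were thus tested because of the group where they are high, and their 2 calls add no support to this share. Adjusted p alone, without the fold threshold, was passed by 2 members in the lower direction (15.0% of all genes) and by 12 in the higher direction (16.3% of all genes). The remaining 21 tested members did not pass it. The median log2 fold change of the tested members was 0.26, against -0.00 over all genes. Control and mutant mice did not overlap for 8 members, which is 22.9% of the members tested and near the 22.7% of all genes tested.

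Over the 12943 tested genes with a known transcript length, log2 fold change fell with length (Spearman correlation across genes -0.32), and the transcripts of the members run from 2683 bases for Itgb7 to 11388 bases for Lama5. With each library's trend on length removed, 1 member was called lower, against 6.51% of all genes, and 9 were called higher, against 7.84% of all genes. The median of the members then moved to 0.38. Itga4 and Itgb8 joined the calls and Itgb7 left them, and 16 members instead of 12 passed the adjusted p in the higher direction. The part of the length trend in these results was not tested beyond this refit.

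**Figure D2:**
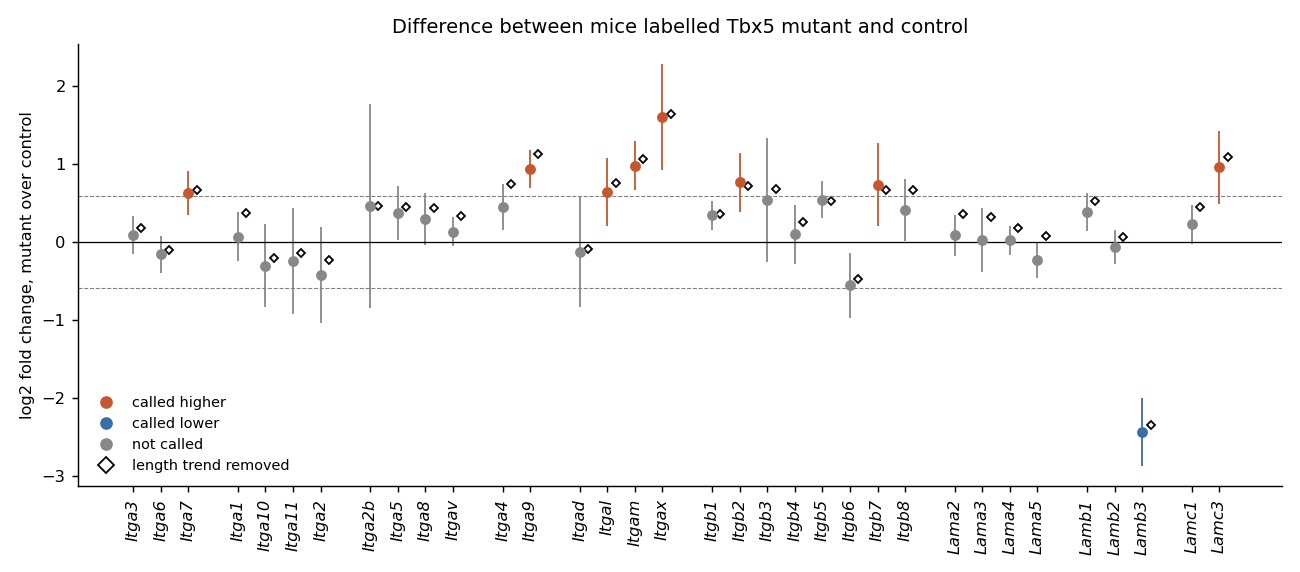
Log2 fold change of tested members, mice labelled Tbx5 mutant over mice labelled control, with 95% confidence intervals, coloured by call; dashed lines mark a fold of 1.5 and open diamonds the value with the length trend removed. Lamb3 at -2.44 stands alone below the lower line among the called genes, and the called alpha chains lie between 0.62 and 1.60.

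Lamb3, the beta chain of the laminin that anchors epithelia to the matrix beneath them, showed the largest difference of any member. It was at 20.7, 18.9, 32.8 and 34.4 CPM in the controls, and at 3.35 to 6.00 CPM with a median of 5.22 in the 6 mutant mice. Each mutant mouse lay below each control mouse, and the lowest control value was more than the highest mutant value by a wide gap. The log2 fold change was -2.44 (95% confidence interval -2.87 to -2.00, adjusted p = 2.32e-06 from edgeR), so that the mutant mice kept 18.5% of the control level. A two-sided exact permutation test gave p = 0.00952. It can go no lower with these group sizes and takes this value whenever the groups do not overlap. In reads, Lamb3 had 114 to 254 per control library and 21 to 43 per mutant library. The log2 fold change lay between -2.56 and -2.28 with any 1 library left out, was -2.47 without mutant mouse M3, and was -1.90 among mice labelled male (adjusted p = 0.00244 from edgeR) and -2.86 among mice labelled female (adjusted p = 1.05e-05). The 2 control mice with Y-linked reads, F1 and F2, had the higher Lamb3 values of the 4. In bulk RNA, fewer cells that express a gene and less of its RNA per cell cannot be told apart, here and for each gene below.

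The 250 bases before the first RefSeq start of Lamb3 are shown because it is the member with the largest difference in a study of a T-box factor. In the mm10 mouse genome (GRCm38, RefSeq promoter table of GRCm38.p6) the gene lies on chromosome 1 from 193207699 to 193343878 on the forward strand, and the window is chr1:193301744-193301993, inside the longer gene model of GENCODE M21. Capitals mark AGGTGT, the core that T-box factors are known to bind, searched on both strands and present here on the reverse strand as its complement.

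Lamb3: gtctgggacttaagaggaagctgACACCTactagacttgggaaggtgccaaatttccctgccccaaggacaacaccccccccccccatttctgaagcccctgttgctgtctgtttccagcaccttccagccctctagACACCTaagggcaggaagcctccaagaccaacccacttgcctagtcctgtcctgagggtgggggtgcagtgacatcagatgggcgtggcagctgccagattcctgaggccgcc

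Both matches lie on the reverse strand, and their first bases are 227 and 113 bases before the start. Of all 32851 promoter windows of this length, 11.8% held at least 1 AGGTGT on either strand and 1.15% held 2 or more. The window before a second listed Lamb3 start held none. RefSeq windows were found for 23 of the 37 members, and 3 of these, Itga3, Itgb6 and Lamb3, held the letters in a window. A match of 6 letters is a description of the sequence and not a binding site.

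Lama3, an alpha chain that assembles with Lamb3, and the receptor chains that bind the trimer were not called. It was at 6.95 ± 0.95 CPM in control mice (SD, n = 4) and 7.06 ± 1.7 in mutant mice (SD, n = 6), with a log2 fold change of 0.03 (95% confidence interval -0.38 to 0.43). This interval leaves out the fall seen for Lamb3. Of the receptor chains, Itgb4 had a log2 fold change of 0.10 (95% confidence interval -0.28 to 0.48), Itga6 of -0.16 (-0.39 to 0.07) and Itga3 of 0.09 (-0.15 to 0.33). As a share of the summed beta chain level per kilobase, Lamb3 made up 2.60% to 4.16% in the control mice and 0.433% to 0.791% in the mutant mice.

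The abundant laminin chains differed little. Lamb2, the main beta chain, had a log2 fold change of -0.07 (95% confidence interval -0.29 to 0.15) and Lama4 of 0.02 (-0.17 to 0.21). Lama2 was at 352, 344, 381 and 364 CPM in the controls and at 286 to 465 CPM with a median of 398 in the mutant mice, and the groups overlapped (log2 fold change 0.09, 95% confidence interval -0.18 to 0.35). Lamc1 had a log2 fold change of 0.22 (adjusted p = 0.155). With the length trend removed, Lama2 and Lamc1 passed the adjusted p (log2 fold changes 0.36 and 0.45, adjusted p = 0.0212 and 0.0197 from edgeR), both below the fold threshold. Lama5 was at 82.8 ± 3.6 CPM in control mice and 70.3 ± 10 in mutant mice, with 5 of 6 mutant mice below all controls, but its log2 fold change went from -0.23 (adjusted p = 0.110) to 0.08 once the length trend was removed.

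Lamb1, the beta chain of many embryonic and vascular laminins, was at 173 ± 14.8 CPM in control mice and 225 ± 32.3 in mutant mice, a log2 fold change of 0.38 (SE 0.11, edgeR adjusted p = 0.0209) that stayed under the fold threshold. It lost the adjusted p without control mouse M1, M2 or F1 (adjusted p up to 0.0637). Its mean share of the beta chain level was 19.0% ± 1.4 in control mice and 24.9% ± 3.4 in mutant mice.

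Lamc3, a gamma chain found in peripheral nerve and vessels among other places, rose. It was at 3.00, 4.30, 3.45 and 2.71 CPM in the controls and at 4.29 to 8.22 CPM with a median of 6.62 in the mutant mice. Of the 6 mutant mice, 5 lay above all controls and M1 at 4.29 CPM lay within them. Its log2 fold change was 0.95 (SE 0.22, edgeR adjusted p = 0.00499), from 20 to 26 reads per control library and 22 to 59 per mutant library. Among mice labelled male it was 0.53 (adjusted p = 0.292) and among mice labelled female 1.31 (adjusted p = 0.00432). Its exons are overlapped on the opposite strand by those of a predicted gene, and the strand setting of the counting is not stated.

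**Figure D3:**
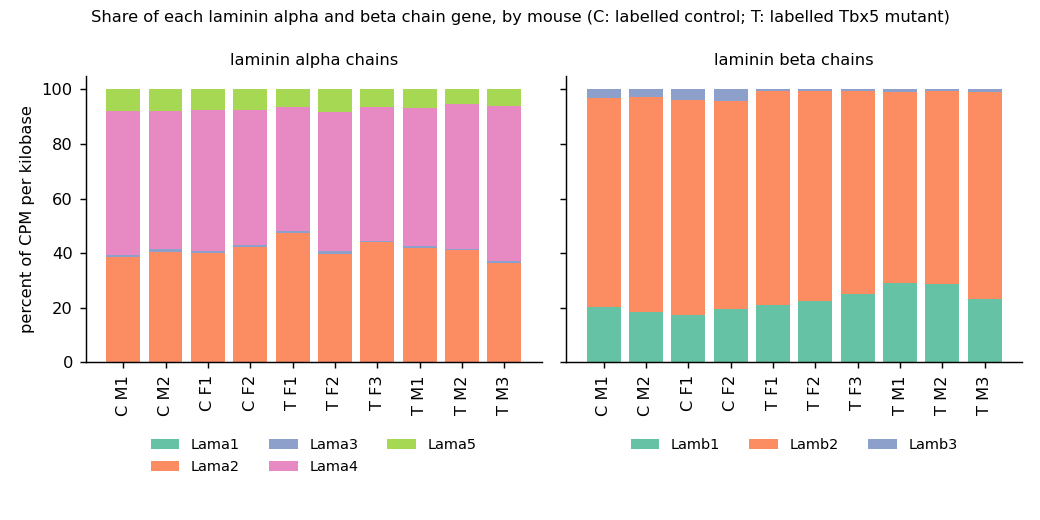
Share of each laminin alpha and beta chain gene in the summed CPM per kilobase of its class, as stacked bars from 0 to 100 percent, 1 bar per mouse. The Lamb3 band at the top of the beta chain bars is 2.60% to 4.16% high in the 4 control mice and 0.433% to 0.791% high in the 6 mutant mice, while Lama2 and Lama4 fill most of each alpha chain bar.

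Of the laminin-binding alpha chains, Itga7 rose and the others did not pass the test. Itga7, the laminin receptor chain of skeletal and heart muscle (chromosome 10 from 128933818 to 128958282, forward strand), was at 117, 106, 147 and 158 CPM in the controls and at 157 to 232 CPM with a median of 207 in the mutant mice. All mutant mice but M3 lay above all controls, and M3 at 157 CPM lay just below control F2. The log2 fold change was 0.62 (SE 0.13, edgeR adjusted p = 0.00301), a fold of 1.54 that is close to the threshold of 1.5. Left out in turn, single libraries moved it between 0.54 and 0.73, and the adjusted p stayed at 0.0128 or below. The fold fell under 1.5, which ends the call, without control mouse M1 (log2 fold change 0.58) or M2 (0.54), without mutant mouse M1 (0.58) and among mice labelled female (0.41). The exons of Itga7 are overlapped on the opposite strand by those of Mettl7b.

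Itgb1, the beta chain that pairs with Itga7, was at 588, 589, 603 and 574 CPM in the controls and at 691 to 779 CPM with a median of 749 in the mutant mice. The groups did not overlap, and the spread within them was small. This gave a log2 fold change of 0.34 (SE 0.09, edgeR adjusted p = 0.00942), a fold of 1.27 that is under the threshold. The two-sided exact permutation test gave p = 0.00952, its value whenever the groups do not overlap. Its share of the beta chain level per kilobase was 73.2% in control mice and 72.1% ± 2.6 in mutant mice, so its level rose without a larger share of the class.

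Itgb5, which pairs with Itgav to bind vitronectin, was likewise higher in each mutant mouse than in each control mouse. The controls had 142, 134, 114 and 125 CPM, and the mutant mice 159 to 226 CPM with a median of 189. Its log2 fold change of 0.54 (SE 0.11, edgeR adjusted p = 0.00242) corresponds to a fold of 1.45. Without control mouse M1 the gene passed the fold threshold as well, at a log2 fold change of 0.60.

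Itgb6 was the second member past the adjusted p in the lower direction, although under the fold threshold. It was at 33.0, 31.4, 56.8 and 44.5 CPM in the controls and at 20.8 to 35.7 CPM with a median of 29.0 in the mutant mice, and the groups overlapped. Its log2 fold change was -0.55 (SE 0.19, edgeR adjusted p = 0.0425), and the adjusted p was lost without control mouse F1 or F2 or without mutant mouse F2, F3 or M2 (-0.37 and adjusted p = 0.175 without control F1), or with the length trend removed (-0.47, adjusted p = 0.0792). Among mice labelled male it was -0.15 and among mice labelled female -0.89.

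None of the 8 collagen-binding and RGD-binding alpha chains passed the test. RGD is the short peptide motif by which fibronectin, vitronectin and fibrinogen are bound. Itgav, the most abundant of them, was at 146 ± 5.3 CPM in control mice (SD, n = 4) and 160 ± 14 in mutant mice (SD, n = 6), with a log2 fold change of 0.13 (95% confidence interval -0.05 to 0.32), and passed the adjusted p with the length trend removed (0.33, adjusted p = 0.0140 from edgeR). Itga5 had a log2 fold change of 0.37 (95% confidence interval 0.03 to 0.72, adjusted p = 0.0905) and Itga8, a chain of smooth muscle and stromal cells, of 0.29 (-0.04 to 0.62). Itga1, the most abundant collagen-binding chain, went from 70.0 ± 9.7 to 73.2 ± 16 CPM, a log2 fold change of 0.07 that rose to 0.37 with the length trend removed (adjusted p = 0.0175). The other collagen-binding chains, Itga2, Itga10 and Itga11, were at 2.25 to 3.78 CPM on average in control mice, with log2 fold changes from -0.42 to -0.24 and intervals that all include 0.

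Itga9 rose most firmly. This alpha chain pairs with Itgb1 and is known to bind tenascin C, VCAM1 and osteopontin, and it lies on chromosome 9 from 118606690 to 118901003 on the forward strand. It was at 80.7, 71.1, 69.5 and 70.8 CPM in the controls and at 104 to 158 CPM with a median of 145 in the mutant mice. Every mutant mouse lay above every control mouse. The two-sided exact permutation test gave p = 0.00952, its value whenever the groups do not overlap. On the log2 scale the difference was 0.93 (95% confidence interval 0.69 to 1.17, edgeR adjusted p = 5.49e-05). It was 0.92 without mutant mouse M3, 0.74 among mice labelled male and 1.11 among mice labelled female, and 1.13 with the length trend removed. Its RefSeq window, which lies before a start inside the longer GENCODE gene model, held no AGGTGT.

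Itga4, the closest relative of Itga9 and a receptor chain for VCAM1 and fibronectin that is carried by many white blood cells, was at 16.6 ± 2.8 CPM in control mice and 22.7 ± 2.8 in mutant mice. Its log2 fold change of 0.45 (SE 0.13, edgeR adjusted p = 0.0217) was under the fold threshold and became 0.74 (adjusted p = 0.00362) with the length trend removed. It lost the adjusted p without control mouse F1 (adjusted p = 0.0732).

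**Figure D4:**
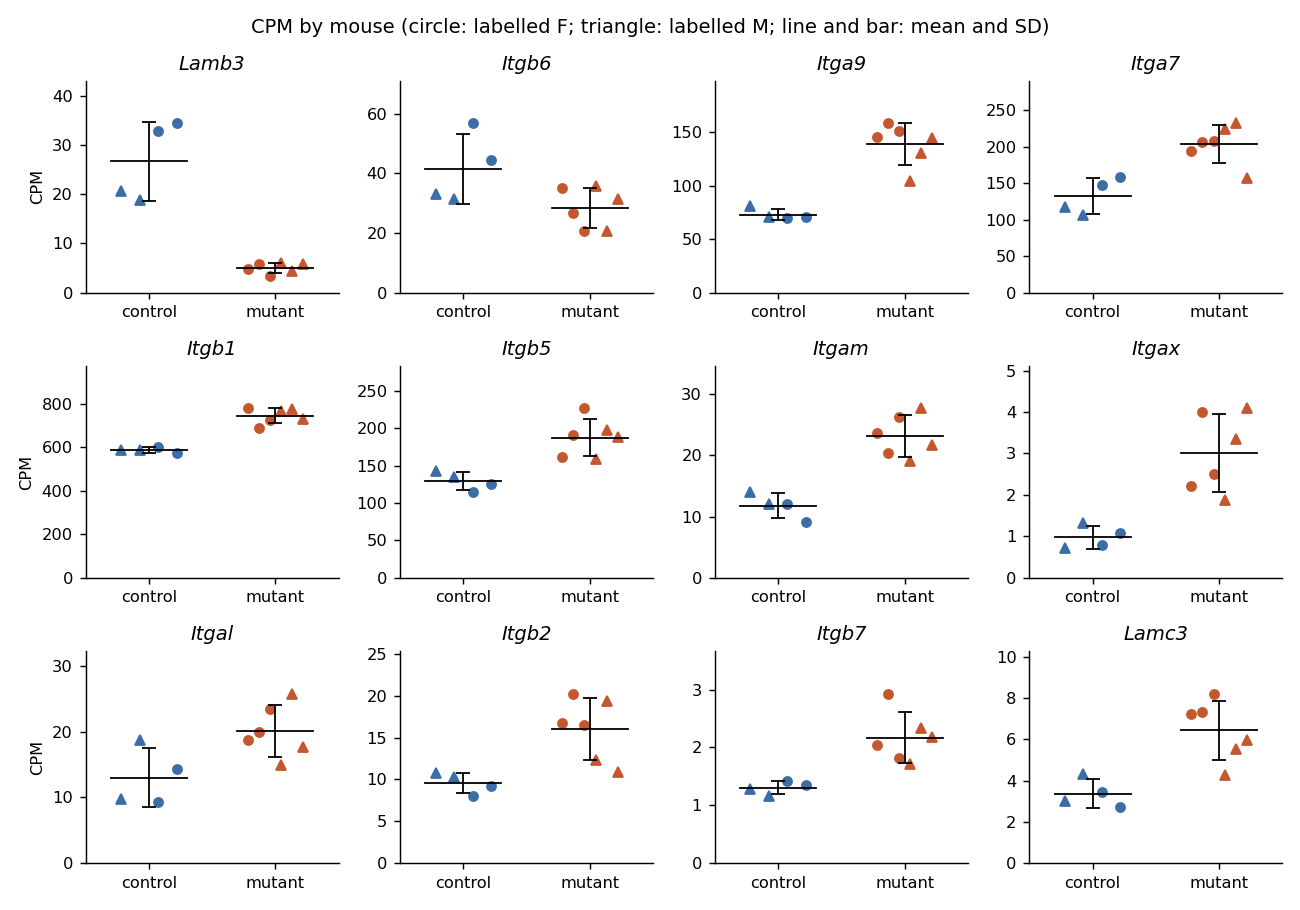
CPM of 12 members in each mouse, from 0, with circles for mice labelled F, triangles for mice labelled M, and the mean and SD of each group in black. Lamb3 sits at 3.35 to 6.00 CPM in the mutant mice against 18.9 to 34.4 in the control mice; Itga9, Itgb1, Itgb5, Itgam, Itgax, Itgb2 and Itgb7 show no overlap in the other direction, and Itga7, Itgal, Itgb6 and Lamc3 overlap.

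Of the 4 leukocyte alpha chains tested, Itgam, Itgax and Itgal were called higher in the mutant mice and Itgad was not (75.0%, against 8.50% of all genes tested), and their shared beta chain Itgb2 was called higher as well. Itgax counts in this share although it passed the expression filter only through the mutant mice, where it was higher. Itgam, the alpha chain of the complement receptor on macrophages and neutrophils, was at 14.0, 12.1, 12.1 and 9.07 CPM in the controls and at 19.0 to 27.7 CPM with a median of 22.7 in the mutant mice. The groups were well apart (log2 fold change 0.98, 95% confidence interval 0.66 to 1.29, edgeR adjusted p = 0.000256).

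Itgax, a chain of dendritic cells and of some macrophages, was at 0.714, 1.32, 0.784 and 1.08 CPM in the controls and at 1.89 to 4.08 CPM with a median of 2.93 in the mutant mice. This rests on 5 to 8 reads per control library and 11 to 30 per mutant library, and the groups did not overlap. Its log2 fold change of 1.60 was the largest rise among the members tested, with a 95% confidence interval of 0.92 to 2.28 (edgeR adjusted p = 0.00203). Among mice labelled male it was 1.58 with an adjusted p of 0.0758.

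Itgal, the alpha chain that lymphocytes and other white blood cells use to bind ICAM proteins, was at 9.72, 18.7, 9.25 and 14.3 CPM in the controls and at 14.9 to 25.8 CPM with a median of 19.3 in the mutant mice. The groups overlapped, through control mouse M2, and the log2 fold change was 0.64 (SE 0.20, edgeR adjusted p = 0.0276). It lost the adjusted p without control mouse M1 or F1 or without mutant mouse M2 (adjusted p up to 0.0907), and among mice labelled male (log2 fold change 0.48, adjusted p = 0.339).

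Itgb2 was at 10.7, 10.3, 8.00 and 9.20 CPM in the controls and at 10.9 to 20.3 CPM with a median of 16.6 in the mutant mice. Mutant mouse M3 at 10.9 CPM was barely above control M1. For Itgb2 the log2 fold change was 0.76 (SE 0.18, edgeR adjusted p = 0.00512) and became 0.84 without mutant mouse M3. Among mice labelled male it was 0.46 (adjusted p = 0.271), which ends the call, and among mice labelled female 1.05 (adjusted p = 0.00297). Itgb7, the beta chain of gut-homing lymphocytes that also pairs with Itga4, rose from 1.30 ± 0.11 to 2.17 ± 0.44 CPM (log2 fold change 0.73, edgeR adjusted p = 0.0381) on 7 to 10 reads per control library and 8 to 22 per mutant library. With 1 library left out the call was kept in 3 of 10 refits, those without mutant mouse F1, F3 or M1, and it was lost with the length trend removed (adjusted p = 0.0612) and within either labelled sex (adjusted p = 0.254 in males and 0.225 in females). Itgae, an alpha chain of lymphocytes within epithelia, had 2 to 5 reads in control libraries and 3 to 12 in mutant libraries, so that it was not tested. With single libraries left out it was called higher without control mouse M1 or M2 and in none of the other 8 refits. Itgad, a macrophage chain, was at 1.95 ± 0.70 CPM in control mice and 1.73 ± 0.65 in mutant mice. Its exons are overlapped by those of 3 genes on the opposite strand, Cox6a2 among them, and of 1 on the same strand, so its count is uncertain.

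Itgam and Itgax are neighbours on chromosome 7, where Itgam runs from 128062640 to 128118491 and Itgax from 128129547 to 128150657, both on the forward strand. The exons of Itgam are overlapped on the same strand by those of a predicted gene. The 250 bases before their RefSeq starts (GRCm38.p6), chr7:128062390-128062639 and chr7:128129300-128129549, are shown because the genes rose together. Capitals mark GAGGAA on either strand, letters at the centre of the site of PU.1, a transcription factor of myeloid cells.

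Itgam: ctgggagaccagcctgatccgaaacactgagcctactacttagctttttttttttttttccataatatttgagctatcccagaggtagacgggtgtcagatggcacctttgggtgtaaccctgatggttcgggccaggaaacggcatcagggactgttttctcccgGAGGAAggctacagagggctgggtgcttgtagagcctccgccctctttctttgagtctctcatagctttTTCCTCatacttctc

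Itgax: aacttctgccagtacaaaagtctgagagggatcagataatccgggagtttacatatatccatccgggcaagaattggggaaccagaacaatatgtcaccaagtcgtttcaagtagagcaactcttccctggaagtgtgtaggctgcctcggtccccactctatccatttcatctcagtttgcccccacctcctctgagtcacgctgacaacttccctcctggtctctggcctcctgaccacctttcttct

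The Itgam window held 2 matches, with first bases 84 and 15 bases before the start, and the Itgax window held none. GAGGAA was present in 23.3% of all windows and in a window of 13 of the 23 members found. These are descriptions of the sequence, and the absence of the letters in the Itgax window says nothing of the factor.

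Markers of white blood cells were examined beside these chains. Of the 16 leukocyte markers listed, 15 were in the table and 6 were tested, and 4 of them, Ptprc, Cd68, Csf1r and Emr1 (the older symbol of Adgre1), were called higher. Ptprc, the common leukocyte antigen, went from 19.8 ± 3.6 to 35.4 ± 5.9 CPM (log2 fold change 0.84, edgeR adjusted p = 0.000788), and Cd68 of macrophages from 4.70 ± 0.73 to 9.39 ± 2.7 CPM. The summed level of the list ran from 330 to 540 CPM in control mice and from 551 to 804 CPM in mutant mice, without overlap, and none of its genes was at 0 in every library. The T cell gene Cd3e averaged 0.114 CPM in the control mice and 0.184 CPM in the mutant mice, under the 3-count floor. The part of the number of white blood cells in the higher integrin values was not tested.

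Itga2b and Itgb3, the alpha and beta chain of the platelet fibrinogen receptor, varied more between mice than between groups. Itga2b was at 4.43, 2.65, 7.06 and 12.6 CPM in the controls and at 1.09 to 21.6 CPM with a median of 7.09 in the mutant mice. The log2 fold change was 0.46 with a 95% confidence interval of -0.85 to 1.77, the widest of the members tested. Itgb3, which endothelial and other cells also express with Itgav, was at 11.4, 10.3, 13.6 and 20.8 CPM in the controls and at 8.06 to 37.0 CPM with a median of 17.7 in the mutant mice (log2 fold change 0.54, 95% confidence interval -0.26 to 1.33).

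Both chains were highest in control mouse F2 and in mutant mice F2 and M2. Of the 7 platelet markers listed, 5 (Ppbp, Gp9, Gp1bb, Gp6 and Treml1) were also highest within their groups in these 3 mice, whereas Pf4 was highest among controls in M2 and Gp1ba had its lowest control value in F2. Ppbp was at 28.4 CPM in control F2, 28.1 in mutant F2 and 42.2 in mutant M2, and at 0.343 to 10.7 CPM in the other mice. Of the 5 platelet markers tested, 0 were called (0 also passed the adjusted p). Their summed level ran from 27.3 to 69.7 CPM in control mice and from 28.6 to 127 CPM in mutant mice. The part of platelets left in the tissue in these 2 genes was not tested.

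**Figure D5:**
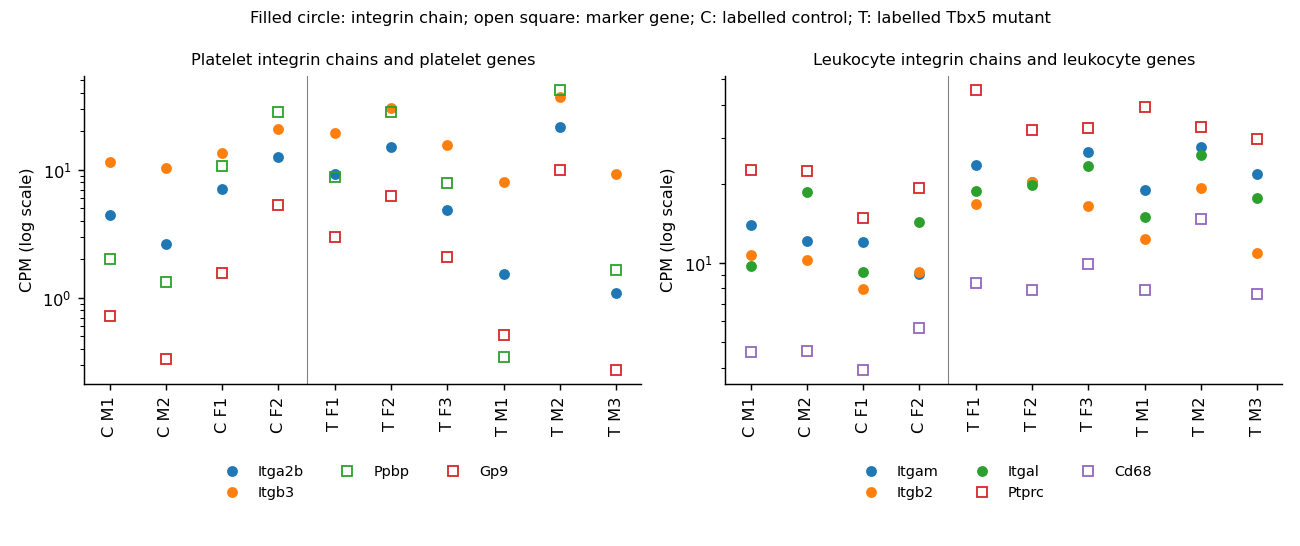
CPM on a log axis of integrin chains (filled circles) and marker genes (open squares) in each mouse, platelet genes on the left and white blood cell genes on the right. Itga2b, Itgb3, Ppbp and Gp9 are highest in control F2, mutant F2 and mutant M2, while Itgam and Itgb2 lie higher in all mutant mice than in all control mice, as do Ptprc and Cd68.

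An interaction term of genotype and sex was fitted with the sex labels as given and with those of the control mice exchanged. Because the reads contradict the control labels, the term fitted by the labels amounts to a difference between the sexes over both groups. If sex is as the reads have it, only the fit with exchanged labels asks whether the difference between the groups depended on sex. By the labels, 0 of the 35 members passed an adjusted p of 0.05 in edgeR's test (2 had an unadjusted p under 0.05), beside 38 of all 13084 genes tested. The smallest adjusted p of a member was 0.260, for Lamb3. With the sex labels of the 4 control mice exchanged, as Xist and Ddx3y have them, the count was also 0, beside 1 of all genes. There 2 members were under an unadjusted 0.05 and the smallest adjusted p was 0.442. limma, fitted by the labels as given, called 0 members as well (1 unadjusted), beside 40 of all genes. With so few genes past the threshold, a count of 0 among 35 says little about the members.

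Genes that work with integrins and laminins were examined as 4 lists, of 92 genes in all, of which 83 were tested. In total 32 were called higher (38.6%, against 8.50% of all genes tested) and 4 lower (4.82%, against 7.16%), with a median log2 fold change of 0.35. The lists were chosen with earlier results of these data known, so the shares here and below describe the lists and test nothing. Of 32 tested integrin adaptors, which tie integrin tails to actin and to signalling, 7 were called higher (21.9%) and 2 lower (6.25%, near the share over all genes). Those with the largest rises were the docking protein Nedd9 (log2 fold change 0.93), the actin crosslinker Flna (0.75), the striated muscle chaperone Itgb1bp2 (0.73) and Rsu1 of the complex around integrin-linked kinase (0.69). The actin-binding parvin Parvb fell by 0.81 on the log2 scale and the tensin Tns1 fell by 0.67. The calls of Tns1 and Itgb1bp2 were lost with the length trend removed.

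Of the 19 basement membrane partners, 9 were called higher (47.4%) and 1 lower (5.26%). Sparc, a collagen-binding matrix protein, had a log2 fold change of 1.23, the collagen IV chains Col4a1 and Col4a2 of 1.20 and 1.03, and the fibulin Fbln2 of 1.13. Col4a1 and Col4a2 code for the main network-forming collagen of basement membranes, and the groups did not overlap for either. The fibulin Fbln1 was the gene called lower, at 478 ± 40 CPM in control mice and 260 ± 59 in mutant mice.

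Of 17 tested integrin ligands, 14 were called higher (82.4%) and 0 lower, and 15 passed the adjusted p in the higher direction with 0 in the lower. Tnc, tenascin C, a ligand of the chain encoded by Itga9, was at 2.80 ± 1.3 CPM in control mice (SD, n = 4) and 62.7 ± 33 in mutant mice (SD, n = 6), a log2 fold change of 4.50 (SE 0.42, edgeR adjusted p = 7.23e-06). Postn, periostin, had a log2 fold change of 2.33, Cyr61 (now Ccn1), a matricellular ligand, of 2.28 and Thbs1, thrombospondin, of 1.92. Of the ligand list, Col1a1 and Col1a2 are also among the fibroblast markers used below.

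Of the 15 laminin receptors that are not integrins and their modifying enzymes, 2 were called higher (13.3%) and 1 lower (6.67%). Lgals1, a galectin that binds the sugars of laminin, had a log2 fold change of 1.58 and Rpsa, a ribosomal protein known also as a laminin receptor, of 0.64, while Lgals3 fell by 1.10 on the log2 scale. Rpsa has many processed copies in the genome, so that its count is uncertain, and its call was lost with the length trend removed. Dag1, dystroglycan, the main laminin receptor of muscle outside the integrins, was at 386 ± 36 CPM in control mice and 271 ± 35 in mutant mice (log2 fold change -0.51, edgeR adjusted p = 0.00343), under the fold threshold.

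The cells that could carry these chains were followed by further marker lists. Atrial cardiomyocyte markers summed to 73711 to 87565 CPM in control mice and 58710 to 72650 CPM in mutant mice, with 4 of 8 called lower and 2 higher. The largest parts of this sum were Nppa, at 26827 ± 1745 CPM in control mice and 17114 ± 5453 in mutant mice, and Myh6, at 24102 ± 5619 and 25813 ± 3679. Nppa was called lower and Myh6 did not pass the adjusted p, so this sum too does not give the direction of its list. Ventricular markers summed to 41.1 to 62.8 CPM and 609 to 848 CPM, with 2 of 3 tested called higher. Nearly all of this sum was Myl3, at 45.4 ± 9.1 CPM in control mice and 688 ± 109 in mutant mice. Myl2, also called higher, went from 4.53 ± 2.1 to 19.4 ± 8.9 CPM. Hey2 was not called and went from 5.11 ± 0.82 to 4.17 ± 1.1 CPM, so the sum describes Myl3 and not the list. Endothelial markers overlapped between groups, at 1195 to 1652 and 1376 to 1709 CPM, and 0 of 8 were called (2 passed the adjusted p in the higher direction), beside a Lama4 that did not differ. Fibroblast markers summed to 7958 to 9630 and 5945 to 8689 CPM, with 2 of 8 called higher and 1 lower. The gene called lower, Gsn, was the largest part of this sum, at 5675 ± 677 CPM in control mice and 3344 ± 789 in mutant mice. Those called higher were Col1a1 and Col1a2 (log2 fold changes 1.31 and 1.19), so the sum does not give the direction of the list. Smooth muscle and pericyte markers summed to 419 to 494 and 464 to 936 CPM, with 2 of 9 called higher. Schwann cell markers summed to 90.6 to 104 and 52.7 to 70.5 CPM, with 1 of 5 tested called lower. This gene, Mbp, was the largest part of the sum, at 60.6 ± 10 CPM in control mice and 29.8 ± 2.5 in mutant mice. The other 4 tested did not pass the adjusted p.

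Mesothelial markers, the nearest epithelium to the atrial wall, summed to 309 to 323 CPM in control mice and 191 to 376 CPM in mutant mice, overlapped, and had 0 of 6 called (0 past the adjusted p) beside the fall of Lamb3. All 6 proliferation genes were called higher, with sums of 12.3 to 26.8 and 74.1 to 246 CPM. Erythroid markers had 2 of 2 tested called higher, with Hba-a1 and Hba-a2 listed at 0 in every library. None of 5 adipocyte markers passed the filter, and their sum reached 20.8 CPM in mutant mouse M2 and at most 4.14 CPM elsewhere. The part of any of these cell types in the values of the integrin and laminin chains was not tested.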

How the data were processed

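RNA from the right atria of 4 mice labelled control and 6 labelled Tbx5 mutant had been sequenced as single-end reads. The authors deposited 1 table with the read count of each gene in each library, and a normalized signal that is the count divided by a size factor per library. The remaining columns hold the authors' own DESeq2 comparison (mean signal, log2 fold change and its error, a Wald score, p-values and the fold change as a ratio, all as deposited) and were not used. The submitters' processing notes list FastQC, TopHat2 2.0.11, featureCounts, DESeq2 and the genome build mm10. The strand setting of the counting is not given in the sources used here, and the kit named in the labels does not mark strand, so reads of overlapping genes on opposite strands cannot be told apart. The labels name both an mRNA kit and total RNA depleted of ribosomal RNA.

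Counts were scaled by TMM and tested with edgeR 4.0.16 in R 4.3.3 (expression filter, quasi-likelihood test, prior count 0.125, all 10 libraries, no covariates). SEs were derived by dividing the absolute log2 fold change by the root of its F statistic, and intervals at 95% used the degrees of freedom of that test. Single values were compared by the exact permutation test over all 210 divisions of the mice, which cannot give a p below 0.00952. P-values were adjusted over all 13084 genes tested. Length trends came from the longest GENCODE M21 transcript of each symbol, found for 22844 of 23337 genes, through a lowess curve with a span of 0.4 per library entered as offsets. Alternatives used DESeq2 1.42.0 and limma 3.58.1, other scalings and filters, sex, a replicate block and the omission of each library. The scripts were tested on simulated data.

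Depth was 5703775 to 7095141 counts per library. A floor of 3 counts is 4.23e-05% to 5.26e-05% of a library, and floors and counting intervals cover counting error only, since reads carry no molecular identifiers. The chi-square per degree of freedom between libraries of a group was at least 3.60 in each of 21 pairs, so no library was a repeat of another.

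The members and gene lists were chosen with earlier results of these data known. Named were each called member, each member whose groups did not overlap, the most abundant member of each role, and of each partner list at most 4 called genes per direction by size. Dag1, Cd3e, Ryr2, Sln, Tnnt2, Actc1, Nppa, Myh6, Myl2, Myl3, Hey2, Gsn, Mbp and the named platelet genes were singled out after their values were seen, and so were the searched motifs. The same holds for the other members given with values, such as Itga4, Itga5, Itga8, Itgb3, Itgb6, Itga2b, Lama5, Lamb1 and the partner chains of Lamb3. Older symbols were matched through RefSeq synonyms, and Ly6g and Hbb-bt were not found in the table. The values of 1 member are not reported here, although it is counted among those tested.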

Additional observations from a re-analysis of the deposited data

Results flagged for a closer look

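In control mouse M1, Itga9 was at 80.7 CPM (565 reads), while the other 3 control mice lay between 69.5 and 71.1 CPM. The gap is large against the range of the 4 values by Dixon's criterion, and the value lies on the side of the mutant mice. In the same mouse Itgb4 was at 14.1 CPM (99 reads), while the other 3 control mice lay between 7.84 and 8.66 CPM. Of 74 groups of values examined, 2 stood out in this way, and chance gives about 1 in 20, or 3.7.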

How the results depend on the processing

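The limits are 4 control mice against 6, a single library that carried most of the Rn45s reads, control sex labels that the reads contradict, and low counts for Itgax, Itgb7, Itgae and Lamc3. Of 901 refits of the 35 tested members, 821 kept their direction and their side of the adjusted p threshold, 42 lost it, 13 gained it and 25 changed sign. The count of members called lower went from 1 to 2, by the addition of Itgb6, among mice labelled female and without a fold threshold, and ran from 1 to 2 with single libraries left out (2 without control M1 or M2 or mutant F1, M1 or M3). The count called higher, 8, became 5 with a mean count of at least 50, 3 among mice labelled male and 1 at a fold over 2, and ran from 6 to 8 with single libraries left out. Partner genes called lower, 4, became 2 among mice labelled female, 1 at a fold over 2 and 9 without a fold threshold. Partner genes called higher, 32, became 20 among mice labelled male and 16 at a fold over 2. Fewer mice or genes enter several of these fits, and otherwise the cause was not tested.

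With the replicate number as a block, 1 member was called lower and 7 higher (9 with the length trend removed as well). Over the 4 same-numbered pairs, deviations from the group means correlated at -0.05 to 0.04. Their mean was -0.007, against 0.001 over the other 20 pairs, so same-numbered mice were no more alike than others. These values cannot show whether such mice shared a litter or a day of processing.

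The sign changes, none past the adjusted p, were as follows on the log2 scale. Among mice labelled male, Itga1 was at -0.15, Itgad at 0.36, Itgb4 at -0.23 and Lama3 at -0.27. Among mice labelled female, Itga11 was at 0.17, Itga2b at -0.0080 and Lama4 at -0.057. limma gave -0.046 for Itga2b and -0.000226 for Lama3, and removal of the GC trend gave -0.0082 for Lama3. Itgad was at 0.089 with the replicate block and 0.13 with block and length trend together. Removal of the length trend gave 0.081 for Lama5 and 0.059 for Lamb2, and with the block as well 0.13 and 0.058. With single libraries left out, Itga1 ran from -0.029 to 0.14, Itga11 from -0.51 to 0.063, Itgad from -0.30 to 0.040, Lama3 from -0.11 to 0.11 and Lama4 from -0.015 to 0.057.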
